A study of Bos taurus with 6 samples.

Results

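PLPPR4 and 7 related genes were examined: the phospholipid phosphatase-related genes PLPPR1, PLPPR2, PLPPR3 and PLPPR5 and the phospholipid phosphatases PLPP1, PLPP2 and PLPP3. These 8 genes were taken by symbol out of 27607 genes in the authors' tables, and each symbol stood on 1 Ensembl identifier. PLPPR4 was singled out because its rise after induction of CREB5 was already known, so its levels are a description and carry no test, whereas the other 7 were chosen by family name. RNA-seq had been done on chondrocytes from the deep zone of bovine articular cartilage, isolated from 3 independently collected knees, infected with a lentivirus carrying doxycycline-inducible bovine CREB5 and selected for 11 days in G418 at 500 µg/ml. CREB5 belongs to the CREB and ATF transcription factors. On low attachment plates all 6 cultures then received 20 ng/ml of TGFb2 together with 100 ng/ml of TGFa for 3 days. The 3 Dox- cultures had no doxycycline and the 3 Dox+ cultures had it at 1 µg/ml per the treatment protocol, a dose whose unit is written differently in the design text. Every culture carried the lentivirus, no culture without it entered the comparison, and no label describes a clonal line.

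Phospholipid phosphatases are membrane enzymes with an active site that faces the outside of the cell or the lumen of organelles. They remove phosphate from lysophosphatidic acid (LPA), sphingosine 1-phosphate (S1P), phosphatidic acid and ceramide 1-phosphate, and so limit signalling of LPA and S1P through their receptors. The PLPPR proteins share the membrane fold but lack residues needed for catalysis; they are best known from neurons as plasticity-related genes, which is a different use of the abbreviation from PRG4, the gene of the joint lubricant lubricin. In mouse, PLPPR4 lies at excitatory synapses and acts on LPA signalling there.

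The induced gene checked the labels. CREB5 (ENSBTAG00000018909) stood at 510, 308 and 330 normalized counts in Dox- 1, 2 and 3 and at 20935, 12413 and 21964 in Dox+ 1, 2 and 3, so each library lay on the side its label gives; transcripts of the transgene and of the cell's own gene cannot be told apart. A normalized count is the read count of a gene divided by 1 size factor per library. Depth ranged from 20063379 reads (Dox+ 3) to 122366790 (Dox+ 2), and 3 reads, used as the limit that a count of 0 allows, were worth 1.84, 4.44 and 1.83 normalized counts in Dox- 1, 2 and 3. This limit covers counting error only, whereas intervals of fold changes in limma come from the spread between libraries. Genes with a mean of at least 10 normalized counts were tested with limma on log2(normalized count + 1), and fold changes are differences on that scale. Of 13180 genes tested, an adjusted p under 0.05 was reached by 332 (2.52%) with Dox+ higher and by 47 (0.357%) with Dox+ lower. Unadjusted, 10.6% had a p under 0.05, and edgeR and DESeq2 called 2.6% and 5.32% in either direction. Without Dox+ 3 these counts were 139 and 9, without Dox+ 1 they were 206 and 18, and with the replicate number as a block 640 (4.86%) and 218 (1.65%); the lower count was also 72 without Dox- 1, 18 without Dox- 2 and 22 without Dox- 3.

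Among the related genes that are not enzymes, PLPPR4 went from no reads to 686 or more normalized counts, and the others stayed low. PLPPR4 (ENSBTAG00000019031) had 0 reads in each of the 3 Dox- libraries. In Dox+ 1, 2 and 3 it stood at 4207, 686 and 4307 normalized counts, from 2486, 1554 and 1852 reads. The groups did not overlap, and Dox+ 2, the deepest library, held the lowest of the 3 Dox+ levels. The mean of 3066 ± 2062 (SD, n = 3) was at least 1134-fold higher than the mean limit of 2.70 normalized counts given by 3 reads in each Dox- library. The lowest Dox+ library alone was at least 254-fold above it. In bulk RNA, more cells with the transcript and more transcript per cell cannot be told apart.

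The authors' deposited table gives PLPPR4 a log2 fold change of 15.34 with a standard error of 4.30, a size that has no bound from reads, since the Dox- libraries had none. In the same table PLPPR1 has 0.14 (SE 0.43) with an unadjusted p of 0.015, a fold change that is small for its p. In limma without a filter its log2 fold change was 2.63. How the deposited fold changes were estimated was not examined, so they may not be the same measure as those of limma.

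**Figure D1:**
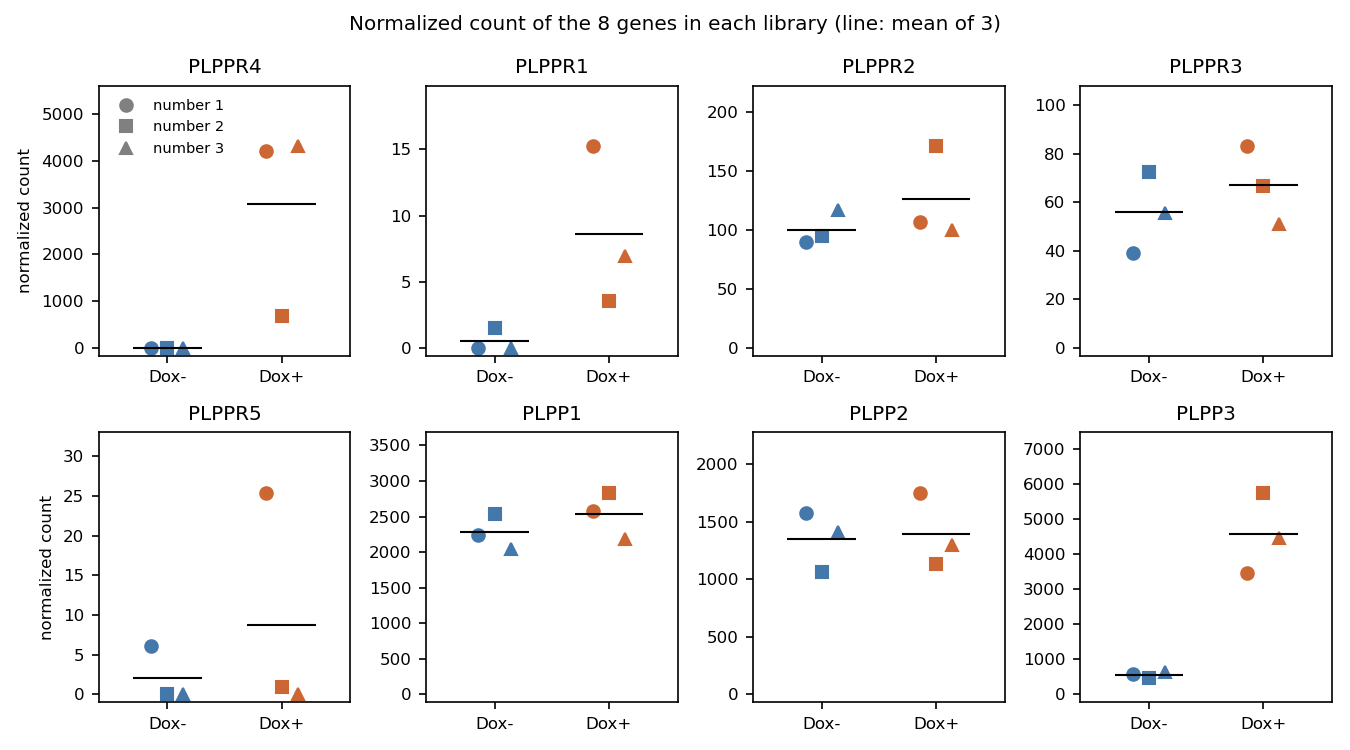
Normalized count of each of the 8 genes (vertical axis, linear, each panel on its own scale) in the 3 Dox- and 3 Dox+ libraries; symbols give the replicate number and lines the mean of 3. PLPPR4 is at 0 in all Dox- libraries and between 686 and 4307 in Dox+, PLPP3 goes from 478 to 628 up to 3471 to 5747, and the panels of PLPP1 and PLPP2 overlap between groups.

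PLPPR1 and PLPPR5 had few reads. PLPPR1 (ENSBTAG00000003137), which promotes filopodia and neurites in neurons, had 0, 1 and 0 reads in Dox- 1, 2 and 3 and 9, 8 and 3 reads in Dox+ 1, 2 and 3. The highest value was 15.2 normalized counts in Dox+ 1. Per unit of depth the pooled reads were 24.0 times higher in Dox+ cells, with a 95% exact interval of 3.84 to 994 that covers counting error only. Its mean lay under the filter of 10. When all 17653 genes with any read were tested, PLPPR1 had a log2 fold change of 2.63 (SE 0.66) and did not pass (limma adjusted p = 0.11).

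PLPPR5 (ENSBTAG00000004591), which also induces membrane protrusions, was seen mainly in the libraries numbered 1. It had 10, 0 and 0 reads in Dox- 1, 2 and 3 and 15, 2 and 0 reads in Dox+ 1, 2 and 3. Both groups hold a library at 0, and the groups overlap. The ratio of pooled reads per unit of depth was 2.04, with an interval of 0.882 to 4.98. PLPPR5 too lay under the filter, and the test without a filter did not call it (limma adjusted p = 0.88).

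PLPPR2 and PLPPR3 were detected in all 6 libraries at similar levels with and without doxycycline. PLPPR2 (ENSBTAG00000008192) stood at 89.5, 94.7 and 117 normalized counts in Dox- 1, 2 and 3 and at 107, 171 and 100.0 in Dox+ 1, 2 and 3. Only Dox+ 2 lay above every Dox- library. Its log2 fold change was 0.29, with a 95% interval of -0.49 to 1.07 (limma adjusted p = 0.88). PLPPR3 (ENSBTAG00000051609), known for a role in axon branching in mouse neurons, stood at 39.2, 72.5 and 55.6 in Dox- and at 82.9, 66.6 and 51.2 in Dox+ 1, 2 and 3. The groups overlapped and 1 of 3 same-numbered pairs was higher in Dox+. The log2 fold change of PLPPR3 was 0.27, a fold of 1.21 with an interval of 0.634 to 2.30 (limma adjusted p = 0.91). For PLPPR2 and PLPPR3 these intervals include changes of up to 2.10-fold and 2.30-fold upward.

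Of the 3 enzymes, PLPP3 rose, and PLPP1 and PLPP2 did not pass. PLPP3 (ENSBTAG00000011640) stood at 579, 478 and 628 normalized counts in Dox- 1, 2 and 3 and at 3471, 5747 and 4472 in Dox+ 1, 2 and 3. Every Dox+ library lay above every Dox- library, and the deepest library was the highest. The same-numbered ratios were 5.99, 12.0 and 7.12. From 562 ± 76.7 to 4563 ± 1141 (n = 3), PLPP3 rose 7.99-fold in the fit, with a 95% interval of 5.56 to 11.5 (log2 fold change 3.00, SE 0.23, limma adjusted p = 0.00021). The call was kept in every alternative run, with log2 fold changes of 2.71 to 3.21. The authors' deposited table gives 2.96 (SE 0.25).

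PLPP1 (ENSBTAG00000010526) stood at 2242, 2542 and 2047 in Dox- 1, 2 and 3 and at 2584, 2832 and 2186 in Dox+ 1, 2 and 3. It was higher in each same-numbered pair, by 1.15, 1.11 and 1.07 times, while the groups overlapped. Its fold change of 1.11 had an interval of 0.832 to 1.48 (limma adjusted p = 0.88). PLPP2 (ENSBTAG00000000717) stood at 1575, 1063 and 1413 in Dox- and at 1751, 1132 and 1300 in Dox+ 1, 2 and 3, with a log2 fold change of 0.04 and an interval of -0.50 to 0.58 (limma adjusted p = 0.98). In both groups the library numbered 2 held the lowest PLPP2 level. A rise of PLPP1 or PLPP2 as large as that of PLPP3 lies outside these intervals.

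Of the 7 related genes, 5 had a mean above the filter and 1 of those, PLPP3, was called higher, beside 2.52% of all tested genes; since the 8 genes were gathered around a known rise, nothing is read from that share. With the replicate block the same gene was called and no other (limma adjusted p = 2.7e-05). PLPP3, PLPPR4 and PLPPR1 were the members whose groups did not overlap, all with Dox+ higher. Of all tested genes, 8.88% had such groups. PLPPR1 lay under the filter, so that share does not cover it.

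The share of PLPP3 in the summed counts of the enzymes moved with its rise. The sum of PLPP1, PLPP2 and PLPP3 was 4396, 4083 and 4087 normalized counts in the Dox- libraries, in replicate order, against 7806, 9711 and 7958 in the Dox+ libraries, a ratio of means of 2.03. PLPP3 held 13.2%, 11.7% and 15.4% of that sum in Dox- and 44.5%, 59.2% and 56.2% in Dox+ 1, 2 and 3. PLPP1 held 54.4% ± 6.79 of it in Dox- and 29.9% ± 2.89 in Dox+ cells (SD, n = 3). These shares are of read counts not corrected for transcript length, so their change between libraries can be read but not which transcript was the more abundant. No test was made on them.

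**Figure D2:**
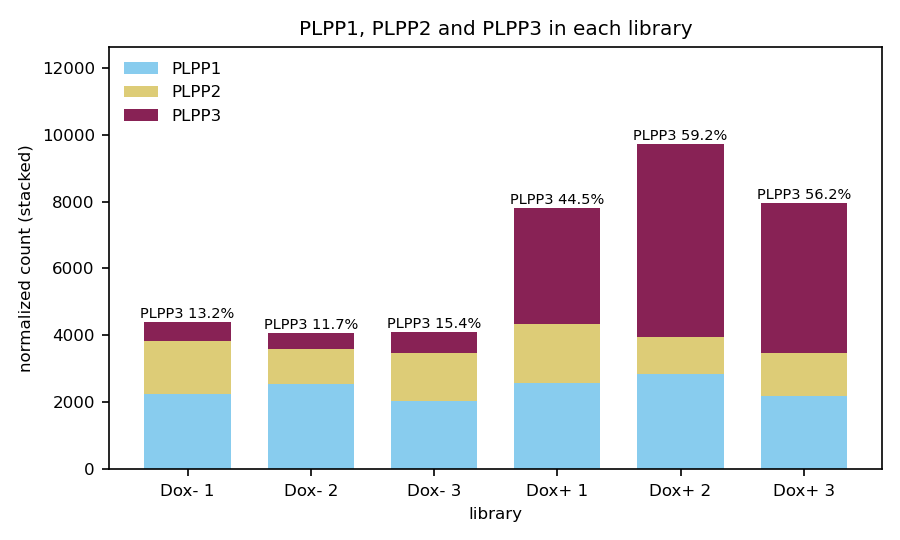
Stacked normalized counts of PLPP1, PLPP2 and PLPP3 (vertical axis, from 0) in each library, with the percent of the sum held by PLPP3 above each bar. The Dox+ bars reach 7806 to 9711 against 4083 to 4396 in Dox-, and the PLPP3 segment differs most between the groups.

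The level of PLPPR4 and that of PLPP3 ordered the Dox+ libraries differently. Dox+ 2 held 22.4% of the Dox+ mean of PLPPR4, against 137% and 140% in Dox+ 1 and 3. The same library held 126% of the Dox+ mean of PLPP3, against 76.1% and 98.0%. Dox+ 2 was also the lowest Dox+ library for the induced CREB5, at 67.3% of the mean, and the highest for PRG4, at 144%. With 3 libraries no relation between these levels was tested. The part of the CREB5 level or of the knee of origin in the low PLPPR4 level of Dox+ 2 was not tested.

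**Figure D3:**
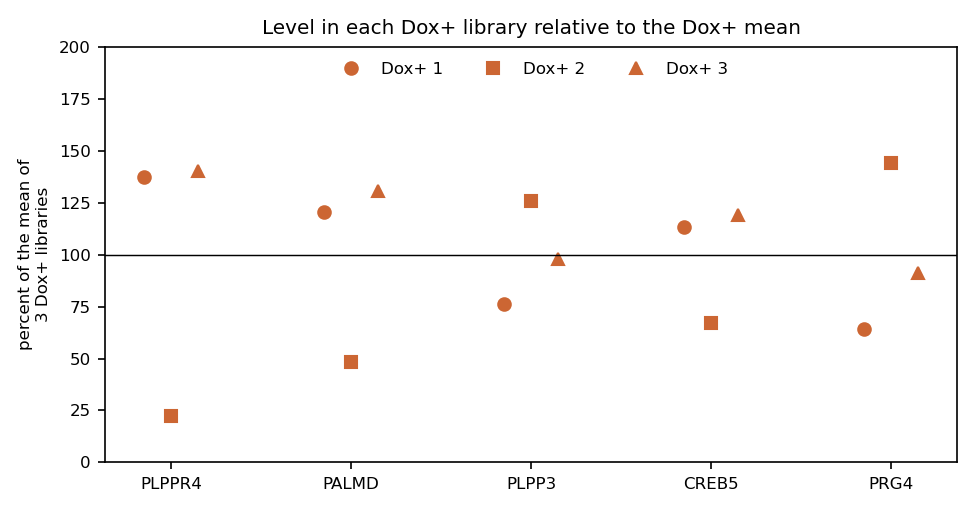
Level of PLPPR4, PALMD, PLPP3, CREB5 and PRG4 in each Dox+ library as a percent of the mean of the 3 Dox+ libraries (vertical axis, from 0; line at the mean). PLPPR4 and PALMD are lowest in Dox+ 2, at 22.4% and 48.4%, while PLPP3 and PRG4 are highest there, at 126% and 144%.

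On the chromosome, PLPPR4 lies between PALMD and PLPPR5 in the order of protein-coding genes in RefSeq's ARS-UCD2.0 annotation, a build other than the one named for these files. PALMD (ENSBTAG00000017655), which encodes palmdelphin, a cytosolic protein of the paralemmin family, rose with PLPPR4. It stood at 17.8, 2.96 and 8.56 normalized counts in Dox- 1, 2 and 3 and at 785, 315 and 851 in Dox+ 1, 2 and 3. As for PLPPR4, no Dox- library came near the Dox+ ones and Dox+ 2 was the lowest of those. The latter held for 193 of the 332 genes called higher. From 9.77 ± 7.49 to 650 ± 293 (n = 3), PALMD rose 66.8-fold in the fit, with an interval of 24.7 to 180 (limma adjusted p = 0.0011). The Dox- mean of PALMD lay under the filter of 10, which it passed only through its Dox+ level.

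The other genes described around PLPPR4 did not pass the test or lay under the filter. SNX7, a sorting nexin, stood at 1080 ± 137 in Dox- and 1018 ± 226 in Dox+ cells (n = 3), with a log2 fold change of -0.10 (interval -0.62 to 0.41, limma adjusted p = 0.94) that was 0.07 without Dox+ 2. FRRS1, a ferric reductase-like gene, had 8, 0 and 2 reads in Dox- and 15, 3 and 2 in Dox+ 1, 2 and 3 and lay under the filter. No source used here gives the strand setting of the counting, so reads of overlapping genes may not be separable. The RefSeq gene between PLPPR5 and SNX7, LOC101902918, was not analysed here.

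**Figure D4:**
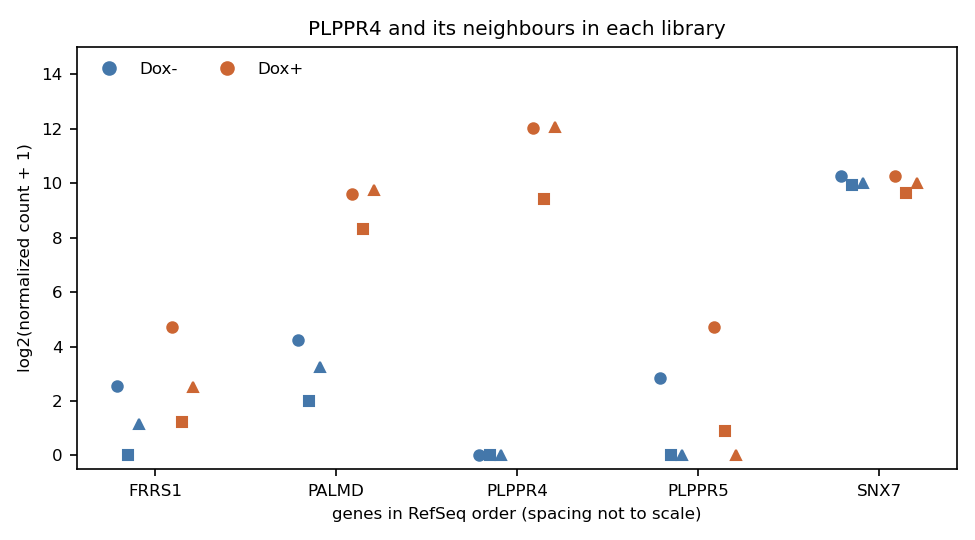
PLPPR4 and genes near it, in RefSeq order with spacing not to scale (horizontal axis), against log2(normalized count + 1) in each library; blue is Dox-, orange Dox+, and circles, squares and triangles are replicates 1, 2 and 3. PLPPR4 and PALMD separate the groups, and the SNX7 groups overlap.

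The nearest protein-coding neighbours of all 8 genes were then listed, a choice made after PALMD had been seen. Leaving out the members themselves, there were 14 such neighbours, of which 8 were tested. PALMD was called higher, as were 2.52% of all tested genes. The log2 fold changes of the other 7 lay between -0.11 and 0.57 (lowest limma adjusted p = 0.85). PRKAA2, next to PLPP3 and encoding a catalytic subunit of AMP-activated kinase, lay under the filter, and USP24 on its other side, a ubiquitin protease, had a log2 fold change of 0.36 (limma adjusted p = 0.85).

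PLPPR4 was 1 of 124 genes with no read in any Dox- library and at least 1 in each Dox+ library, and had the highest Dox+ mean of these in normalized counts, which are not corrected for length. Next came CALCB, a calcitonin gene-related peptide, at 1142 ± 254, the NRG1 identifier ENSBTAG00000054057 of the growth factor neuregulin, at 768 ± 359, the neuropeptide gene ADCYAP1 at 439 ± 480 and the protease inhibitor gene SPINK6 at 407 ± 318 (n = 3). ADCYAP1 was highest in Dox+ 3, at 988, and SPINK6 in Dox+ 1, at 762. Each of these genes was lowest in Dox+ 2, as were PLPPR4 and 193 of the 332 genes called higher.

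The tested genes with the highest Pearson correlation with PLPPR4 over the 6 libraries, on the log2 scale, were TNFRSF9, a TNF receptor of activated lymphocytes (r = 0.9996), ECEL1, an endopeptidase-like gene (r = 0.9993), ART3, an ADP-ribosyltransferase relative (r = 0.998), C1QTNF6, a C1q-like secreted protein (r = 0.997), and BMP3, a bone morphogenetic protein (r = 0.997). These values describe 6 libraries in 2 separate groups and mostly restate the gap between them. TNFRSF9 stood at 59.2, 19.9 and 58.1 in Dox+ 1, 2 and 3 and at 0 in Dox-. C1QTNF6 stood at 17.8, 17.7 and 18.3 in Dox- and at 44.0, 38.8 and 48.8 in Dox+ 1, 2 and 3, a fold of 2.36 that did not pass (limma adjusted p = 0.29), so a high correlation here does not require a large change. CREB5 stood at place 14 in this order (r = 0.995), PALMD at place 100 (r = 0.978) and PLPP3 at place 204 (r = 0.957).

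Genes for the handling of the same lipids, and relatives of the phosphatases, were examined next. The first list held other phosphatases and relatives, and not all act on these lipids, since it includes glucose 6-phosphatase genes. Of its 16 genes, 12 were tested and 0 passed in limma, edgeR or DESeq2, with 1 at an unadjusted limma p under 0.05. The median log2 fold change was -0.07, against -0.0036 over all tested genes. Of all tested genes, limma called 2.52% higher and 0.357% lower, and edgeR and DESeq2 called 2.6% and 5.32% in either direction. An unadjusted limma p under 0.05 was held by 10.6%. These shares also stand beside the counts of the lists that follow. PLPP5, a phosphatase of the same superfamily, stood at 3555, 4242 and 4556 in Dox- 1, 2 and 3 and at 3430, 4329 and 3909 in Dox+. Its fold of 0.945 had an interval of 0.712 to 1.26 (limma adjusted p = 0.94), and its log2 value of -0.08 turned to 0.0064 without Dox+ 1. G6PC3, a glucose 6-phosphatase, and SGMS1, a sphingomyelin synthase, had log2 fold changes of -0.24 and -0.14 (limma adjusted p = 0.86 and 0.91), and that of SGMS1 was 0.05 without Dox+ 1. SAMD8, a ceramide phosphoethanolamine synthase, held the unadjusted p under 0.05 and stood at 339 ± 174 and 628 ± 186 (n = 3, limma adjusted p = 0.39). PLPP4 had 1 read in all, in Dox+ 3.

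Of the LPA list, which holds the enzymes that make or clear LPA and its receptors, 10 of 12 genes had a row, 7 were tested and 0 passed in limma, edgeR or DESeq2; 1 had an unadjusted limma p under 0.05. ENPP2, which encodes autotaxin, the secreted enzyme that makes LPA, stood at 3311, 4141 and 2021 in Dox- 1, 2 and 3 and at 3709, 3927 and 2730 in Dox+. Its log2 fold change of 0.17 had an interval of -0.46 to 0.81 (limma adjusted p = 0.91) and was -0.12 without Dox- 3. LPAR1, an LPA receptor, stood at 1468, 1139 and 802 in Dox- 1, 2 and 3 and at 1939, 1520 and 1746 in Dox+. The groups did not overlap and each pair was higher in Dox+, by 1.32 to 2.18 times, but the 1.57-fold difference (interval 1.06 to 2.31) missed the threshold, with a limma adjusted p of 0.35 and one of 0.12 in the fit with the block. ACP6, a phosphatase of LPA, had a log2 fold change of 0.24 (limma adjusted p = 0.88).

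Of 12 genes of the S1P list, 9 were tested and 0 passed in limma, with 1 at an unadjusted p under 0.05; edgeR called 0 and DESeq2 called 1. That gene was S1PR1, an S1P receptor, at 731, 167 and 118 in Dox- 1, 2 and 3 and at 1548, 869 and 1202 in Dox+ 1, 2 and 3. The groups did not overlap, with Dox- 1 close to the lowest Dox+ library, and the same-numbered ratios were 2.12, 5.20 and 10.2. The 4.80-fold difference (interval 1.87 to 12.4) had a limma adjusted p of 0.12, against 0.0038 with the block and 0.00083 without Dox- 1. The authors' deposited table gives this receptor gene a log2 fold change of 2.15 with an adjusted p of 6.0e-09. S1PR2, another S1P receptor, stood at 2837 ± 589 and 2728 ± 742 (n = 3), with a log2 fold change of -0.07 (limma adjusted p = 0.96) that turned positive when Dox- 3 (0.08), Dox+ 1 (0.05) or Dox+ 3 (0.03) was left out. The sphingosine kinase genes SPHK1 and SPHK2 had log2 fold changes of -0.21 and -0.19 (limma adjusted p = 0.85 and 0.88).

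Of 21 genes listed for phosphatidic acid and diacylglycerol, which include the ceramide kinase gene CERK, 19 were tested. DGKB passed and 18 did not. The median log2 fold change of those tested was 0.09. DGKB, a diacylglycerol kinase that makes phosphatidic acid and is best known from brain, stood at 11.0, 2.96 and 3.06 in Dox- 1, 2 and 3 and at 130, 55.6 and 121 in Dox+ 1, 2 and 3. The Dox- values rest on 18, 2 and 5 reads, and the groups did not overlap. Dox+ 2 was the lowest of the induced libraries, as for 193 of the 332 genes called higher. DGKB rose 16.7-fold (interval 6.10 to 45.9, limma adjusted p = 0.010), and the adjusted p was 0.056 without Dox+ 1 and 0.083 without Dox+ 3.

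GPAT3, a glycerol 3-phosphate acyltransferase, stood at 823, 413 and 890 in Dox- and at 1616, 952 and 1774 in Dox+ 1, 2 and 3. Each pair was higher in Dox+, by 1.96, 2.31 and 1.99 times, and the groups did not overlap. The 2.08-fold difference had a limma adjusted p of 0.24, and of 0.0070 with the block. The authors' deposited table gives GPAT3 a log2 fold change of 0.98 with an adjusted p of 6.4e-05, and DGKB one of 4.10 with an adjusted p of 1.6e-09. The genes with the highest counts of this list, AGPAT1, CERK and GPAT4, had log2 fold changes of -0.27, -0.17 and 0.02 (limma adjusted p = 0.79, 0.85 and 0.99); that of GPAT4 was -0.19 without Dox- 2 and -0.07 without Dox+ 2. The 4 lists were chosen with earlier results of these data known and were not tested as sets.

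**Figure D5:**
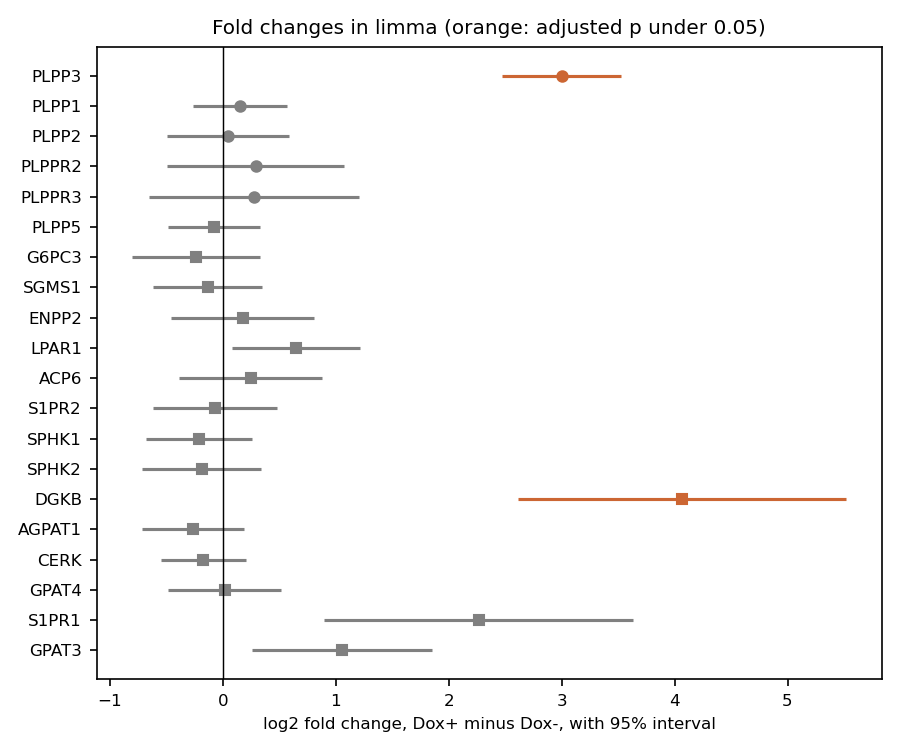
Log2 fold change in limma, Dox+ minus Dox- (horizontal axis), with its 95% interval for the tested members other than PLPPR4 (circles) and for the named genes of the 4 lipid lists (squares); orange marks an adjusted p under 0.05. PLPP3 at 3.00 and DGKB at 4.06 are orange, and the intervals of PLPP1 and PLPP2 span 0.

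Because PLPPR4 is best known from neurons, markers of neurons were read beside it. Of 19 such genes 7 were tested, and MAP2, which binds microtubules in dendrites, passed. It stood at 165 ± 62.1 in Dox- and at 1709 ± 386 in Dox+ cells (n = 3), 10.6-fold higher in the fit (limma adjusted p = 0.00052). The other 6 did not pass. The median log2 fold change of the 7 tested neuron markers was 0.52, against -0.0036 over all tested genes. STMN2, ELAVL4, GAD1 and SLC17A6 had no read in any library, and RBFOX3, GAP43 and NEFM had at most 4. The summed level of the list was 853 to 1029 normalized counts in Dox- and 1976 to 3349 in Dox+ libraries, and without MAP2 it was 617 to 905 and 659 to 1261. Of 9 markers of glia 2 were tested, GFAP fell 25.0-fold (limma adjusted p = 0.014) and 5 had no read. The tested glia marker other than GFAP had a log2 fold change of -0.29, and 7 of the 9 lay under the filter. The summed level of the glia list was 13192 to 19326 normalized counts in Dox- and 10709 to 15766 in Dox+ libraries. That sum rests almost wholly on the 2 tested genes, so it is not a level of the list as a whole. Of 9 endothelial and 9 leukocyte markers 0 passed in limma, edgeR or DESeq2, and 0 had an unadjusted limma p under 0.05. Their summed levels were 158 to 317 and 165 to 248 for endothelial markers, and 207 to 464 and 381 to 718 for leukocyte markers, in Dox- and Dox+ libraries. Of 7 synovial fibroblast markers 0 passed in limma or edgeR, 4 had an unadjusted limma p under 0.05 and DESeq2 called 3; the block called 1 higher and 1 lower, and the sums were 111542 to 147748 and 97675 to 120395. Of 6 osteoblast markers 0 passed in limma, edgeR or DESeq2, 0 had an unadjusted p under 0.05 and the block called 1 lower, with sums of 669 to 1888 and 303 to 1269. Of 5 adipocyte markers 0 passed in limma or edgeR, 1 had an unadjusted p under 0.05, DESeq2 called 1 and the block called 1 higher, with sums of 147 to 317 and 305 to 468. The part of other cells in the levels of PLPPR4 and PLPP3 was not tested. The labelled cell type was checked by chondrocyte markers, whose 12 genes were all detected, with a summed level of 158509 to 313152 in Dox- and 104691 to 123118 in Dox+ libraries. Of these, 11 were tested: MATN3 was higher and ACAN, CHAD and COL9A1 were lower. The block fit called 1 higher and 5 lower, DESeq2 called 7 in either direction, and 7 had an unadjusted limma p under 0.05. Of all tested genes the block called 4.86% higher and 1.65% lower, DESeq2 called 5.32%, and 10.6% had such an unadjusted p. Limma without the block called 2.52% higher and 0.357% lower, and edgeR called 2.6% in either direction. These shares also stand beside the counts of the other marker lists. COL2A1, the main cartilage collagen, was lower in each pair without passing in limma (adjusted p = 0.22), and had an adjusted p of 0.017 in DESeq2.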

How the data were processed

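RNA from 3 Dox- and 3 Dox+ cultures was made into KAPA mRNA HyperPrep libraries, per the labels' protocols. The deposited signal values are counts divided by a size factor per library. Read counts were recovered from them as whole multiples of the smallest step, and 100% were whole within 0.01 read. FastQC, MultiQC, STAR, Salmon, DESeq2 and the build ARS-UCD1.2 are named in the submitters' processing notes. The authors' deposited table also holds log2 fold changes and p-values, which were copied and not recomputed.

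Here log2(value + 1) of 13180 genes with a mean of at least 10 was tested with limma 3.58.1 (two-sided, trend, R 4.3.3), with Benjamini-Hochberg adjustment over all of them. The p-values measure the spread over 3 libraries per group. Alternatives were TMM scaling, other pseudocounts and filters, a replicate block, edgeR 4.0.16, DESeq2 1.42.0 and leaving out each library; the fit was tested on simulated data. The labels name 3 independently collected knees. Deviations from the group means of same-numbered libraries correlated at 0.646, 0.443 and 0.212. Those of differently numbered libraries correlated at -0.590 to 0.183. The highest of these, Dox- 3 with Dox+ 2, was close to the 0.212 of pair 3, so pair 3 is the least clear. The numbers were taken to pair the libraries in the block fits and the same-numbered ratios. The main limma fit used the group only, so its calls leave this pairing out.

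The members and lists were chosen with earlier results of these data known. Text names the members, passing list genes with up to 3 others of highest mean per list, the 5 genes most correlated with PLPPR4, the genes without Dox- reads of highest mean, and neighbours of PLPPR4 among 3 on each side, 1 of which is not reported here; SAMD8, S1PR1, GPAT3, PLPP4, USP24 and PRKAA2 lie outside that rule and were named after their values were seen. Gene order came from RefSeq's ARS-UCD2.0, matched by Entrez ID for 20362 of 20457 IDs. No sequence is printed, and transcript lengths were not used here.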

Additional observations from a re-analysis of the deposited data

How the results depend on the processing

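The number of genes called higher (332) was 640 with the replicate block, 542 in DESeq2 and 591 in edgeR with the block. It ranged from 139 (without Dox+ 3) to 365 when 1 library was left out, and was 602, 934 and 917 for the block without pair 1, 2 and 3, where 1 residual degree of freedom remains. The number called lower (47) was 218, 159 and 190, with a range of 9 to 72 without 1 library and values of 188, 276 and 537 for the block without pair 1, 2 and 3. Of the LPA and S1P lists (0 called), the block, DESeq2 and edgeR with the block each called 1, with 0 to 1 without 1 library and 1 to 2 for the block without 1 pair. Of the phosphatase and phosphatidic acid lists (1 called), both block fits called 2, with ranges of 0 to 1 and 2 to 3. Among members other than PLPPR4, 1 was called in every alternative run. The lowest fold of PLPPR4 ranged from 905 to 1669 and the rise in the PLPP3 share from 36.9 to 44.3 percentage points without 1 library. Signs turned for uncalled genes: the log2 fold change of PLPPR3 was -0.12 in the block without pair 1. Without 1 library, PLPP2 ranged from -0.14 to 0.18, PLPP5 from -0.18 to 0.0064, SGMS1 from -0.23 to 0.045, ENPP2 from -0.12 to 0.40, S1PR2 from -0.28 to 0.079, GPAT4 from -0.19 to 0.15 and SNX7 from -0.26 to 0.071. For the block without 1 pair, PLPP2 ranged from -0.015 to 0.12, S1PR2 from -0.27 to 0.17, GPAT4 from -0.28 to 0.17 and SNX7 from -0.16 to 0.0088. GPAT4 was -0.0014 in edgeR and -0.0070 in DESeq2. The cause of these changes was not tested. Depth limits PLPPR1, with 1 read in Dox- and 20 in Dox+ libraries, and PLPPR5, with 10 and 17.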

Other observations

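Of the 332 genes called higher, 193 were lowest in Dox+ 2 among the Dox+ libraries, 97 in Dox+ 1 and 42 in Dox+ 3. The level in Dox+ 2 as a percent of the mean of Dox+ 1 and 3 had a median of 77.1% over these genes. It was 16.1% for PLPPR4, 38.5% for PALMD, 57.9% for CREB5, 145% for PLPP3 and 185% for PRG4. At or below the value of PLPPR4 lay 10 genes, PLPPR4 included, and at or above that of PLPP3 lay 31. The genes at the low end with a symbol, named after their values were seen, were DMRT2, a transcription factor gene, NPFFR2, a neuropeptide receptor gene, GRIA1, a glutamate receptor subunit gene, GABRA5, a GABA receptor subunit gene, CLDN1, a tight junction gene, ATP8A1, a lipid flippase gene, and RPE65, a retinoid isomerase gene.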
